A study of Homo sapiens with 8 samples.

Results

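The response to CM272 was compared between 2 human liver cell lines, by taking for each gene its HepG2 change and subtracting its LX2 change. All 8 arrays of the study entered this comparison, and 12239 of 14884 genes with a symbol were bright enough to be tested. The test needed a log2 expression value over 4 in each array of some group. At that limit PGLYRP3 was just inside, at 4.0002 in the lower array of its brightest group, and DAAM2 just outside, at 3.9999. LX2 is an established line of hepatic stellate cells, kept in medium with 2% fetal bovine serum, and HepG2 is an established hepatocellular carcinoma line, kept with 10%. In each line 1 group received the vehicle (0.1% DMSO) and 1 group received CM272 at 400 nM, both for 48 h, and each of the 4 groups had 2 arrays. Line and serum level always went together, so that their effects cannot be told apart, and each line stands for its cell type as a single line. Separate cultures are not stated for the arrays of a group, and the p-values therefore describe the spread of these samples alone, which may be technical.

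CM272 is a small molecule that inhibits 2 enzymes together. G9a, encoded by EHMT2, places the dimethyl mark on lysine 9 of histone H3 with its partner GLP, encoded by EHMT1, and DNMT1 copies DNA methylation onto new strands after replication, guided there by UHRF1. Both marks keep genes silent, and which genes a loss of them opens depends on the factors a cell already holds. Stellate cells store vitamin A in the healthy liver and become collagen-producing myofibroblasts on injury, while HepG2 keeps much of the secretory programme of hepatocytes.

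The lines matched their labels for hepatocyte genes: the median of 16 hepatocyte markers lay between log2 11.4 and 11.5 in the HepG2 control arrays, and between 3.99 and 4.01 in the LX2 control arrays. ALB averaged 13.24 in HepG2 control and 3.59 in LX2 control, and VIM, the mesenchymal filament vimentin, 3.67 and 10.19 in the same order. The other stellate and mesenchymal markers were mixed: TAGLN averaged 6.40 in LX2 control against 4.89 in HepG2 control, THY1 5.81 against 4.49, NGFR 5.73 against 5.05 and GFAP 5.02 against 4.79. DES (5.58 against 5.91) and DCN (2.05 against 2.61) were not higher in LX2, and DCN and LUM (2.88 in LX2 control) lay under the filter. Replicate arrays correlated across genes between r = 0.969 and 0.992, and the pair of LX2 CM272 arrays was the least alike, with 183 genes over log2 1 apart against 12 to 39 in the other groups. None of the 16 hepatocyte, 7 stellate, 6 leukocyte, 8 endothelial or 6 cholangiocyte markers bright enough to be tested passed for a difference between the lines. In LX2 itself 4 of them rose with CM272. DES reached 6.83, CD14 went from 5.21 to 6.33, FLT1 from 4.51 to 6.06 and KRT19 from 4.24 to 4.91. Of all genes tested, 1.18% passed for a difference and 8.42% passed in LX2 itself, where 3.79% rose. Nothing is read from these marker counts.

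The CM272 change of a small set of genes differed between the lines. The difference passed the threshold (limma, Benjamini-Hochberg adjusted p under 0.05 over 12239 genes) for 145 genes, 1.18% of those tested. For 101 of them (0.825% of genes tested) the change was lower in HepG2 than in LX2, led by TEX14, USP17L12, FOSB and ZNF280A, and for 44 (0.36%) it was higher, led by MIR4668, SQLE and HOXB4. Most of these genes were called in LX2 by itself: 91 of the 101 had risen in LX2 by the same threshold, and 43 of the 44 had fallen there. The median change of the 101 was 1.25 in LX2 and -0.25 in HepG2, and that of the 44 was -0.93 in LX2 and 0.31 in HepG2, values that the choice of genes by the difference favours. The same medians over all genes tested were -0.02 in both lines, and the median difference was 0.01.

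**Figure D1:**
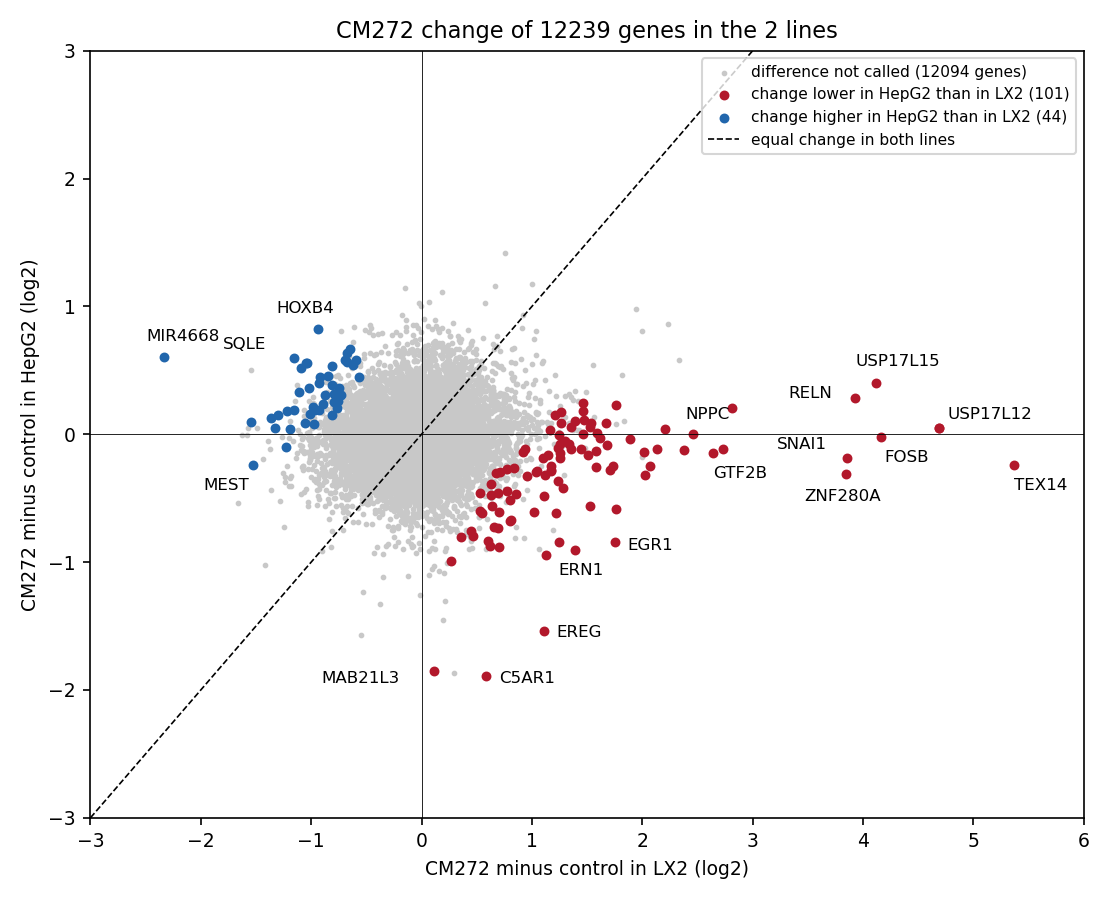
Change with CM272 in LX2 (horizontal axis, log2) against the change in HepG2 (vertical axis, log2), 1 point per gene, n = 2 arrays per group. The 101 genes in red spread to the right, up to a change of 5.37 for TEX14, while their HepG2 changes stay near or below 0. Of the 44 genes in blue, 42 lie to the upper left, and MEST (-1.52 in LX2 and -0.24 in HepG2) lies to the lower left. MAB21L3, C5AR1 and EREG stand apart at the bottom.

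The changes measured in HepG2 were smaller. Across the 12239 genes the SD of the change was 0.26 in HepG2 and 0.40 in LX2, and the changes in the lines, which share no arrays, correlated across genes at r = 0.09. Spread between replicates enters the SD and lowers such a correlation. It was widest in LX2 CM272, with a median absolute difference of 0.26 against 0.12 to 0.15 in the other groups. Its part in these values was not tested. A single gene, C5AR1, passed the threshold in HepG2 (0.00817% of those tested), and 0 rose there by limma, against 583 above 0 and 820 below 0 at an unadjusted p under 0.05. In LX2 1031 genes passed (8.42%), with 464 higher (3.79%) and 567 lower (4.63%). The LX2 counts were 554 higher and 459 lower when each array was centred on its median. They fell to 139 and 144 with array weights, and to 132 and 66 with each line fitted alone. No gene was called in both lines. The difference itself was missed for 897 of the genes called in LX2, and 572 of these had the same sign in HepG2, so that a call in LX2 alone does not show a difference between the lines.

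The genes that rose in LX2 without regard to HepG2 give a view that the difference did not choose. Of the 464, 242 (52.2%) had a HepG2 change above 0 and 222 below 0, with a median of 0.01. Over all genes tested 46.4% had a HepG2 change above 0. Among the 138 that rose at least 2-fold in LX2, the HepG2 median was 0.04 against 1.29 in LX2. These genes were chosen for their LX2 change, and the test of the difference itself called 91 of the 464. Of the 567 genes that fell in LX2, 213 (37.6%) were above 0 and 354 below 0 in HepG2, against 46.4% above 0 over all genes. Their median was -0.06 in HepG2 against -0.75 in LX2.

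The count of 145 depended on single arrays. Without LX2 control replicate 1 or 2, 19 and 20 of the 145 were still called, and without HepG2 control replicate 1 or 2, 28 and 36. The same figure was 59 and 27 without HepG2 CM272 replicate 1 or 2, and 126 and 145 without LX2 CM272 replicate 1 or 2. Under these 8 settings the count ranged from 0 to 583 above 0 and from 19 to 378 below 0. No gene among the 145 changed the sign of its difference in any of 18 alternatives.

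TEX14, USP17L12 and ZNF280A, known from the germline or the early embryo, were among the 4 largest differences. TEX14, which encodes a component of the bridges that join dividing germ cells, read 3.86 and 3.94 in LX2 control and 9.07 and 9.47 in LX2 CM272. In HepG2 it read 3.15 and 3.27 in control and 2.61 and 3.34 with CM272. The LX2 groups lay far apart and the HepG2 groups overlapped. With 2 arrays per group non-overlap is common. In LX2 the CM272 arrays lay above both controls for 23.5% of all genes tested and below for 28.6%. In HepG2 these shares were 20.7% and 28.2%. For TEX14 the difference between the lines was tested directly. The difference was -5.61 (SE 0.33, limma adjusted p = 3.34e-05), and because both control means lie under the filter of log2 4 the size of the rise in LX2 is not exact. TEX14 was the 1 member of 7 tested germline and cancer-testis genes that passed, against 0.825% of all genes. It met the filter through its LX2 CM272 arrays alone, and 7 of the 18 members on the array were tested. Nothing is read from that share. This list and those below were chosen with earlier results of these data known, so their shares describe and do not test. The median difference of the germline list was -0.27. That median was 0.11 with LX2 CM272 replicate 1 left out.

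USP17L12 and USP17L9P are copies of a multi-gene family of deubiquitinases, share all array values here and cannot be told apart. They read 5.09 and 4.76 in LX2 control, 9.62 and 9.62 in LX2 CM272, 3.82 and 3.47 in HepG2 control, and 3.66 and 3.74 in HepG2 CM272. All LX2 CM272 arrays were above every other array, and the HepG2 groups overlapped. The difference was -4.64 (SE 0.24, limma adjusted p = 2.45e-05). USP17L15, a neighbouring copy, differed by -3.72 (SE 0.30) and ZNF280A, a zinc finger gene switched on by the embryonic factor DUX4, by -4.15 (SE 0.23). USP17L15 lay under the filter in LX2 control and in all HepG2 arrays, at 1.49 to 2.40 in HepG2. In ZNF280A the LX2 arrays rose from 4.36 and 4.14 to 8.01 and 8.17, and in HepG2 they were 4.96 and 4.73 without and 4.40 and 4.67 with CM272.

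These were the 4 of 12 tested members of the list of DUX4 targets and USP17L copies that passed, against 0.825% of all genes, and USP17L12 and USP17L9P among them are 1 measurement. USP17L15 met the filter through its LX2 CM272 arrays alone, and 12 of the 21 members on the array were tested. Nothing is read from that share. The other 8 tested members did not pass, among them ZSCAN4 (difference -0.32), LEUTX (0.21) and MBD3L2 (0.07), which DUX4 also switches on. USP17L10 had a change of 1.95 in LX2 and 0.98 in HepG2, with a difference of -0.96 that did not pass (limma adjusted p = 0.19). DUX4 itself had no tested probe set. Over the list the median difference was -0.36.

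RELN encodes reelin, the secreted glycoprotein that guides migrating neurons and is made by some liver cells too. It showed a different starting point from the genes above, at 4.59 and 4.77 in LX2 control and 8.71 and 8.52 in LX2 CM272. HepG2 was already bright, at 11.03 and 11.12 in control and 11.31 and 11.40 with CM272. Both lines had CM272 arrays above their control arrays, by 3.93 in LX2 and 0.29 in HepG2, and the difference was -3.65 (SE 0.20, limma adjusted p = 2.56e-05). PCDH10, a protocadherin of cell adhesion that is often methylated in tumours, rose in LX2 from 5.62 and 5.49 to 8.20 and 8.54. In HepG2 it was dim and overlapped, at 3.71 and 3.60 in control and 3.64 and 4.08 with CM272 (difference -2.61, SE 0.26). LINC00161, a long non-coding RNA gene, rose in LX2 from 3.12 and 3.69 to 5.80 and 6.48. Its HepG2 arrays lay between 3.07 and 3.36 (difference -2.85, SE 0.35, limma adjusted p = 0.00807). Its LX2 control and HepG2 arrays were under the filter, so the size of the rise is not exact. Of 13 tested neuronal genes RELN was the 1 that passed. Of 22 tumour suppressors known for silencing PCDH10 and DKK2 were the 2, and DKK2 was bright enough to be tested in LX2 CM272 alone. The share of all genes that passed in that direction was 0.825%.

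**Figure D2:**
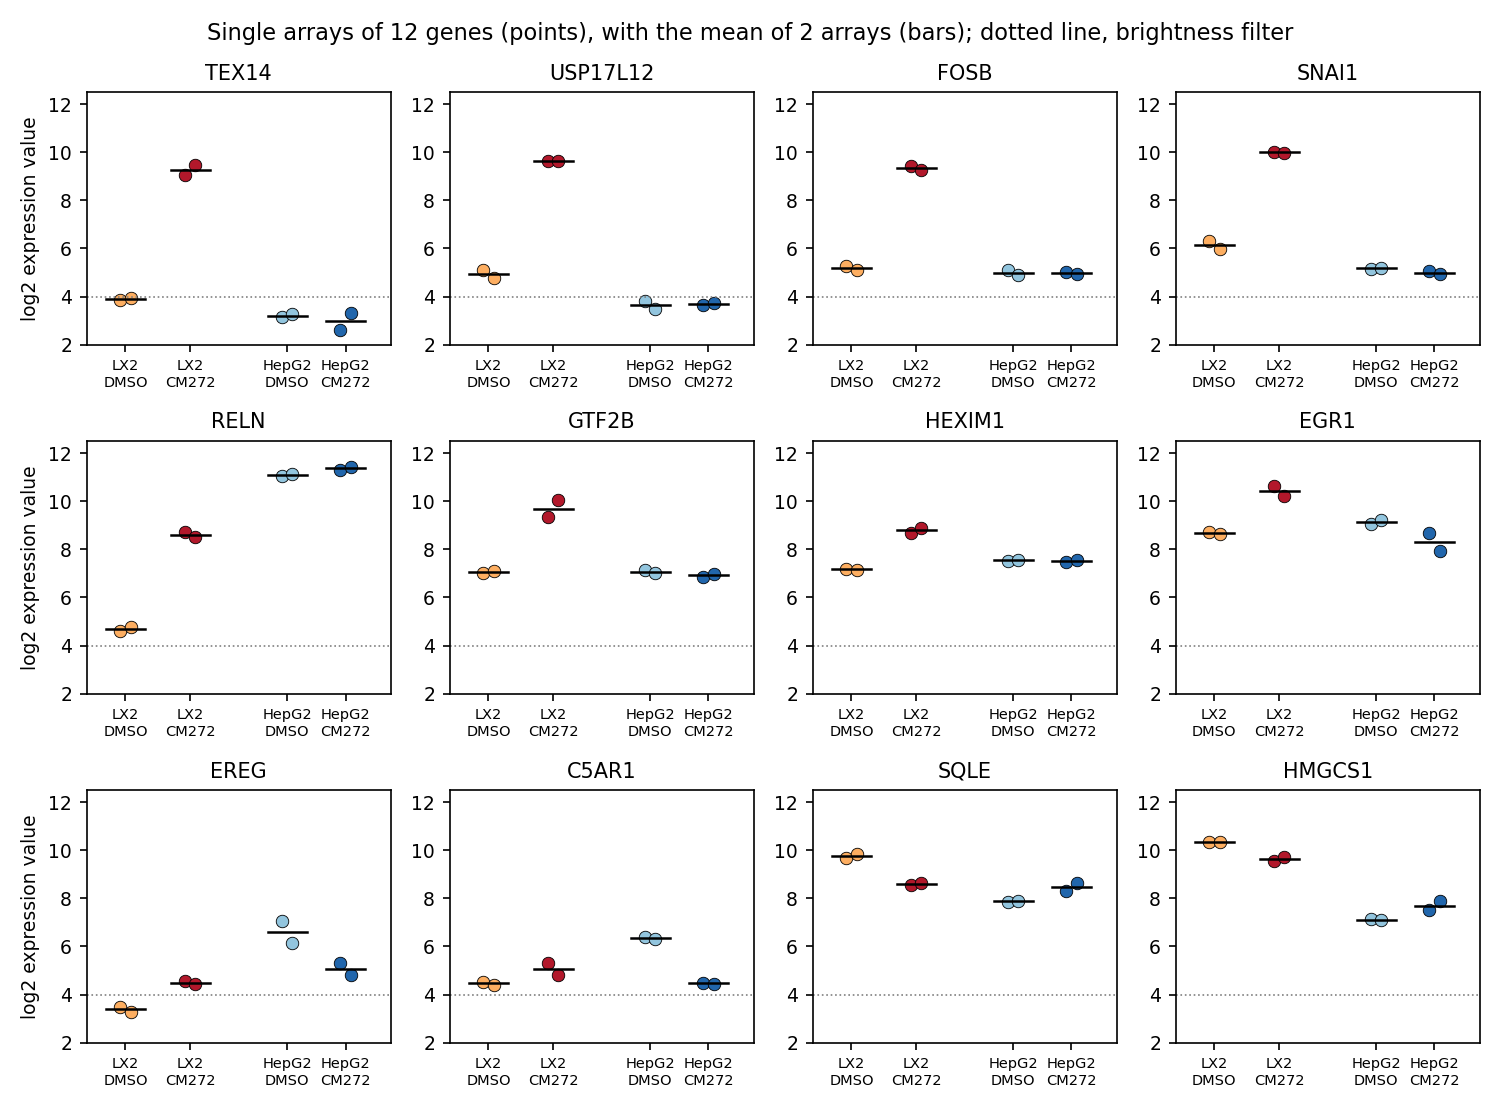
Log2 expression value (vertical axis) of 12 genes in single arrays (points), in LX2 and HepG2 with DMSO or CM272, with the mean of 2 arrays as a bar and the brightness filter of log2 4 as a dotted line. TEX14, USP17L12, FOSB and SNAI1 rise in the LX2 CM272 arrays alone, RELN is bright in all HepG2 arrays, C5AR1 falls in HepG2, and SQLE and HMGCS1 are lower with CM272 in LX2 and higher in HepG2.

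Starting levels in the control arrays varied among these genes. Of the 101 genes with a lower change in HepG2, 59 were brighter in HepG2 control than in LX2 control, as RELN was, and 26 had a HepG2 control mean under log2 4. In the LX2 control 21 lay under 4, and 14 were dim in both. Of the 44 with a higher change in HepG2, 3 were brighter in HepG2 control and 12 were under log2 4 there. In LX2 control 0 of them were under 4, through which genes that fell in LX2 tend to pass the filter. The same control arrays enter the difference. Choosing genes by it favours a brighter HepG2 control among the 101 and a dimmer one among the 44. Nothing is read from these counts.

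Immediate-early genes, which encode transcription factors and phosphatases switched on within minutes of a growth or stress signal, differed between the lines in 4 of 27 tested members, all with the lower change in HepG2 (0.825% of all genes). FOSB, a subunit of the AP-1 factor, read 5.28 and 5.10 in LX2 control and 9.44 and 9.26 in LX2 CM272. In HepG2 it read 5.12 and 4.88 in control and 5.01 and 4.94 with CM272, so that both lines started alike, the HepG2 groups overlapped and the LX2 groups did not. The difference was -4.18 (SE 0.21, limma adjusted p = 2.45e-05).

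SNAI1, a repressor of epithelial genes, rose in LX2 from 6.30 and 5.96 to 10.01 and 9.97. Its HepG2 arrays read 5.14 and 5.21 in control and 5.06 and 4.92 with CM272 (difference -4.04, SE 0.22, limma adjusted p = 2.56e-05). The HepG2 arrays did not overlap, but lay within 0.18 of each other on average. EGR1, a zinc finger factor, rose in LX2 from 8.72 and 8.63 to 10.63 and 10.23, and read 9.06 and 9.22 without and 8.66 and 7.94 with CM272 in HepG2. Its difference was -2.59 (SE 0.33, limma adjusted p = 0.00868), and the call was lost under 2 of 18 alternatives. ATF3, a stress-induced factor, gave 1.76 in LX2 and -0.58 in HepG2 (difference -2.35, SE 0.30).

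These 4 are 14.8% of the list. The median change of the list was 0.33 in LX2 and -0.26 in HepG2, and the median difference -0.72, against 0.01 over all genes. The change was above 0 in 19 of 27 in LX2 and in 4 of 27 in HepG2, against 5808 and 5677 of all 12239 genes. FOS (difference -1.07), EGR3 (-1.17), EGR4 (-1.59), DUSP5 (-1.03) and JUNB (-1.01) did not pass. JUN (-0.06), MYC (0.03) and KLF4 (0.01) had the differences nearest to 0. HepG2 CM272 replicate 2 was further in the direction of the difference than replicate 1 in 22 of the 27, with list medians of -0.25 and -0.20 against the HepG2 control, and in LX2 replicate 1 was the further of the pair, at 0.54 against 0.18. Under 17 alternatives the median difference ran from -0.90 to -0.56.

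Of the promoters of genes with a lower change in HepG2, 29.3% held the letters TATAAA, against 6.74% of all promoters matched. TATAAA is the core of the TATA box, which in genes that have one sits a short way before the transcription start and places the general factors there. RefSeq promoters of GRCh38.p14 (250 bases before to 50 after the start) matched 9209 of the 12239 genes tested, and 75 of the 101 and 31 of the 44. On either strand TATAAA stood in 22 of 75 (29.3%), 6 of 31 (19.4%) and 6.74% of all 9209. On the sense strand between 40 and 20 bases before the start, a window chosen after the values were seen, the counts were 15 of 75 (20%), 3 of 31 (9.68%) and 2.35% of all. The promoters of FOSB at chr19:45467746-45468045 (plus strand), HEXIM1 at chr17:45148225-45148524 (plus), NPPC at chr2:231926347-231926646 (minus) and CCL20 at chr2:227813592-227813891 (plus) are shown because each holds a single TATAAA, in capitals, at 30, 29, 29 and 29 bases before the start, in genes whose differences ran from -4.18 to -1.65. The 4 differ in the number of CG pairs, at 23, 32, 34 and 3.
FOSB: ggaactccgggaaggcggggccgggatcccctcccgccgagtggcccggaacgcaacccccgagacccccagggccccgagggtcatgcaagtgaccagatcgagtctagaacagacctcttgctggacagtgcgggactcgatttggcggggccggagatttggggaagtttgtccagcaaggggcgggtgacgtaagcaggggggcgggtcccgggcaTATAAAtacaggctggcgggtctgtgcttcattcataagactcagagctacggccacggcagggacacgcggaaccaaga
HEXIM1: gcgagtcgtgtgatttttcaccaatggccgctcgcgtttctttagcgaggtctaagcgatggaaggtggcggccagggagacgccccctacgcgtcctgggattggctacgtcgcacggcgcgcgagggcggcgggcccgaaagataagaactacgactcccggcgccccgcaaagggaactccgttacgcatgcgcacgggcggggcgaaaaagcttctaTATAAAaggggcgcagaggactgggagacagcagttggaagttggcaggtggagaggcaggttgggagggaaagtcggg
NPPC: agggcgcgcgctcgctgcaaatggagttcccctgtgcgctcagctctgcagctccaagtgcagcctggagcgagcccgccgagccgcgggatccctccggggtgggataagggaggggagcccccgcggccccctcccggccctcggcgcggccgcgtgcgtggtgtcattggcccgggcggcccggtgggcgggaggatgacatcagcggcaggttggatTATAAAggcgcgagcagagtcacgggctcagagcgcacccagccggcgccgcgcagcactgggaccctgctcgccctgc
CCL20: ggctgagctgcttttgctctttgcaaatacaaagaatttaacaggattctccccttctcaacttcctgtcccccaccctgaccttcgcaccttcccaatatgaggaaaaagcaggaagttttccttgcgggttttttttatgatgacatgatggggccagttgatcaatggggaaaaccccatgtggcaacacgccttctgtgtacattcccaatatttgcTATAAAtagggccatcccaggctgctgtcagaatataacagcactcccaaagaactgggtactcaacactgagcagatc

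The other 11 of the 15 genes with TATAAA in that window included GTF2B, EREG, PTGS2, CXCR4, BAIAP2, CEMIP and ICAM1. Among genes that rose in LX2 with no call for the difference, TATAAA stood in 38 of 263 on either strand (14.4%), and among genes that fell in LX2 in 20 of 459 (4.36%). In the immediate-early list TATAAA stood in 5 of 18 promoters (27.8%), and in the narrow window in 4 (22.2%). EGR1 and ATF3 did not hold these letters in the 300 bases, and SNAI1 had no match in the promoter table. The other 4 motifs searched on both strands were TGACGTCA, TGANTCA, an interferon-stimulated response element and CACGTG. They stood in 2.67%, 4.0%, 4.0% and 12% of the 75 promoters, against 2.85%, 5.22%, 2.63% and 9.61% of all. A match is a description of these letters and not a bound site.

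**Figure D3:**
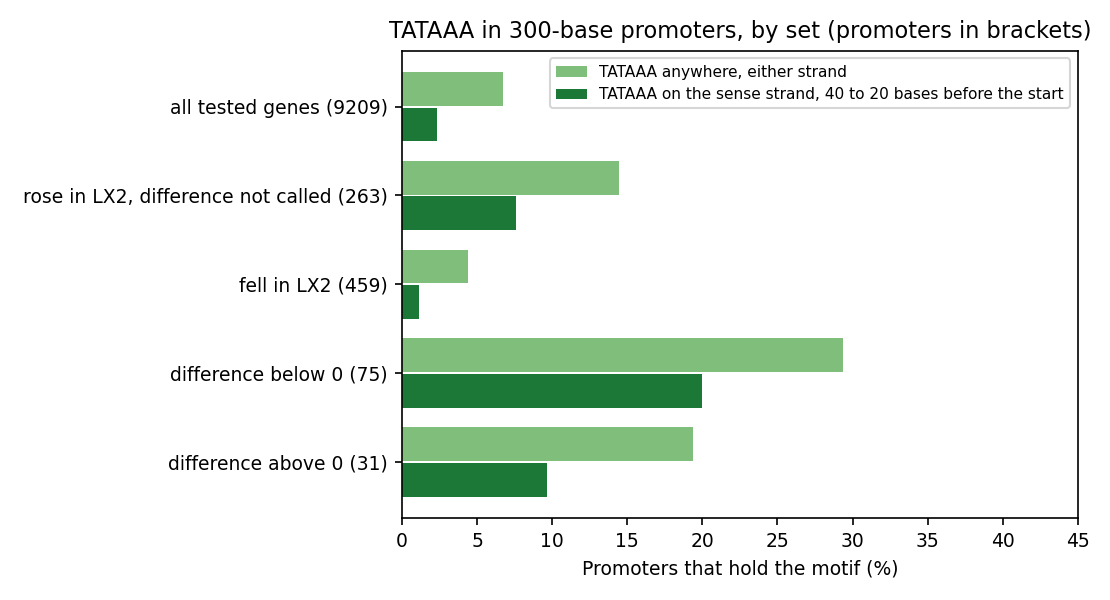
Percent of 300-base RefSeq promoters that hold TATAAA on either strand (light bars) or on the sense strand 40 to 20 bases before the start (dark bars), by set, with the number of promoters in brackets. Of the 5 sets drawn, the bars are longest for the 75 promoters of genes with a difference below 0, at 29.3% and 20%, and shortest for genes that fell in LX2, at 4.36% and 1.09%.

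Genes that control how RNA polymerase II starts and elongates differed in this direction in 3 of 16 tested members, against 0.825% of all genes. The list was chosen with earlier results of these data known, so nothing is read from that share. GTF2B encodes TFIIB, which brings the polymerase to the promoter, and read 7.0 and 7.10 in LX2 control and 9.34 and 10.05 in LX2 CM272. In HepG2 it read 7.14 and 7.0 in control and 6.87 and 6.98 with CM272. The lines began at the same level, and the LX2 CM272 arrays alone stood above the rest (difference -2.79, SE 0.30, limma adjusted p = 0.00372).

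HEXIM1, the inhibitor that holds the elongation kinase P-TEFb inactive, rose in LX2 from 7.19 and 7.16 to 8.69 and 8.90. Its HepG2 arrays overlapped, at 7.50 and 7.57 in control and 7.46 and 7.55 with CM272 (difference -1.65, SE 0.20, limma adjusted p = 0.00699). ELL, an elongation factor, differed by -1.50 (SE 0.22), with 0.62 in LX2 and -0.87 in HepG2. The other 13 members did not pass, among them the P-TEFb subunits CDK9 (-0.29) and CCNT1 (-0.65), the capping partner MEPCE (-0.78) and the bromodomain genes BRD2 (-0.02) and BRD3 (0.06). Over the list the median difference was -0.15. ELL kept its call in 12 of 18 alternatives, and GTF2B in all.

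Inflammatory genes of the NF-kB type differed in 5 of 21 tested members, all with the lower change in HepG2 (0.825% of all genes). CCL20, a chemokine that draws lymphocytes and dendritic cells, read 3.36 and 3.79 in LX2 control and 5.18 and 6.03 in LX2 CM272. HepG2 held it at a high level throughout, at 11.70 and 11.76 in control and 11.50 and 11.31 with CM272. The groups did not overlap in either line, with the CM272 arrays above control in LX2 and below it in HepG2 (difference -2.35, SE 0.36, limma adjusted p = 0.0228), although the LX2 control lies under the filter of log2 4. Such a pattern held for 5.49% of all genes tested. PTGS2, the inducible cyclooxygenase, rose in LX2 from 4.46 and 4.87 to 6.59 and 7.16 and stayed dim in HepG2, between 3.0 and 3.26 (difference -2.17, SE 0.31).

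The adhesion molecule ICAM1 (-1.40, SE 0.23), the granulocyte growth factor CSF3 (-1.33, SE 0.22) and IL11, a cytokine that drives fibroblasts (-1.58, SE 0.28), completed the 5. IL11 was called in neither line on its own, with 0.70 in LX2 and -0.88 in HepG2. Over the list the median change was 0.40 in LX2 and -0.20 in HepG2, with a median difference of -0.68 that ran from -0.83 to -0.60 over 17 alternatives. LIF (-1.52), CXCL8 (-0.72), TNF (-0.32) and NFKB1 (-0.41) did not pass. CCL20, PTGS2 and IL11 lost their calls in 6, 5 and 8 of 18 alternatives.

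**Figure D4:**
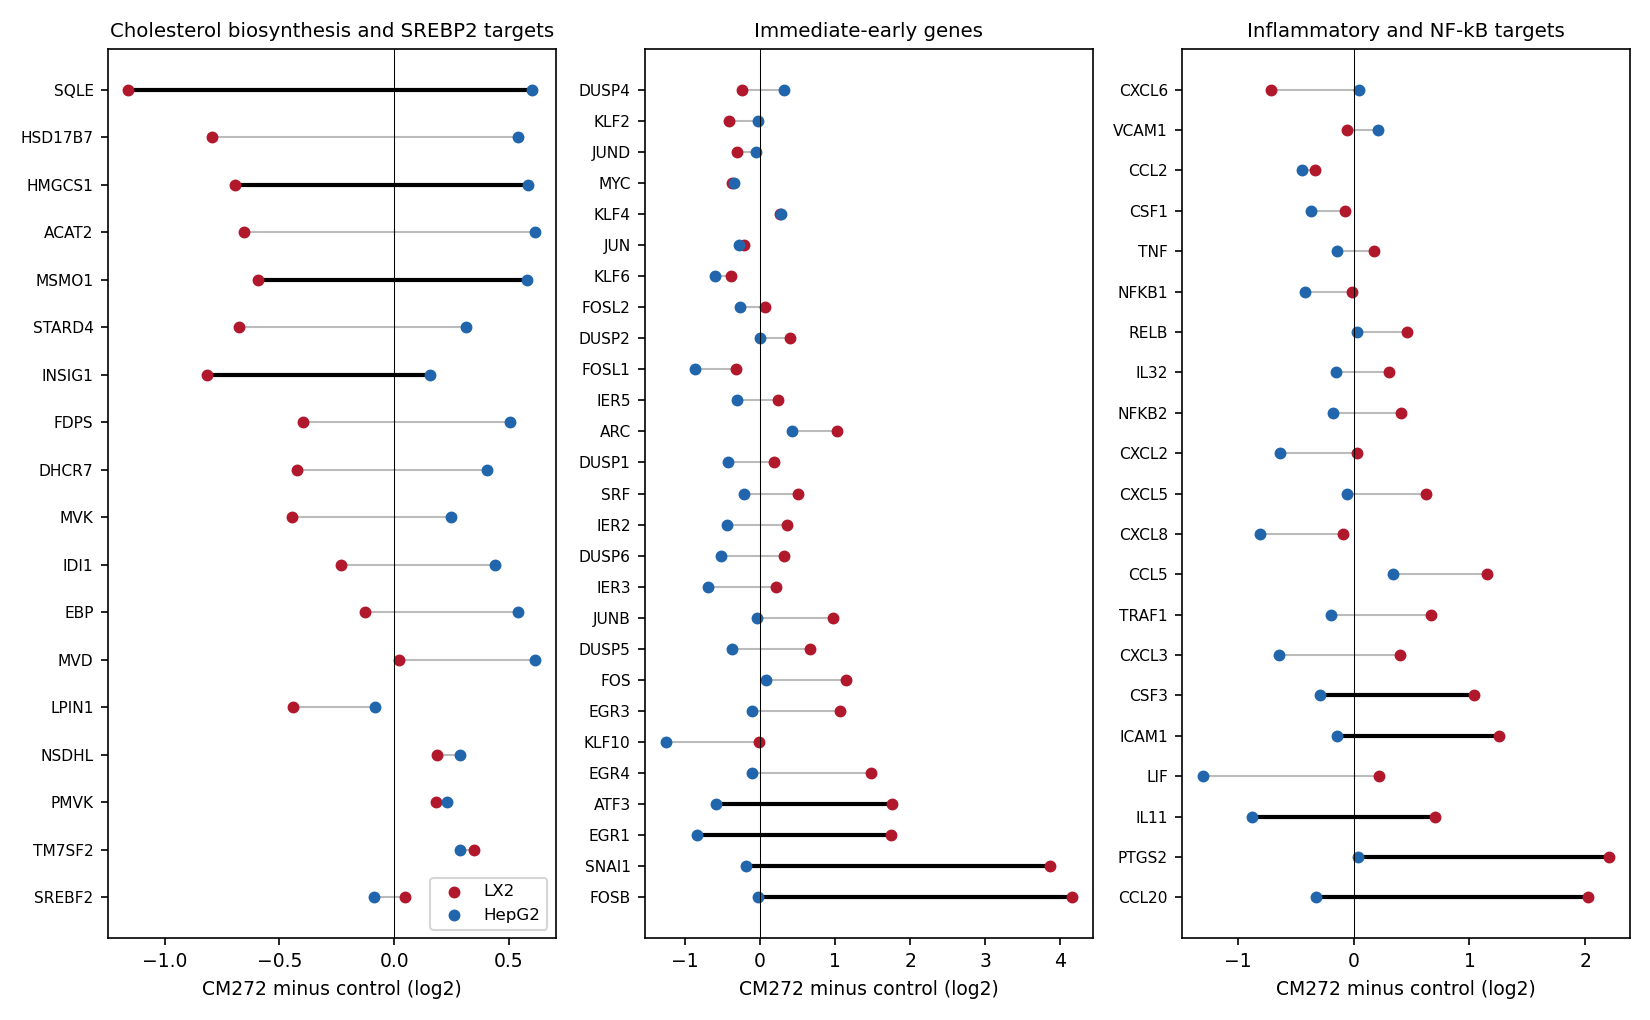
Change with CM272 (log2, horizontal axis) in LX2 (red) and HepG2 (blue) for the members of 3 gene lists, joined by a line that is black where the difference passed the threshold. Cholesterol genes lie to the left in LX2 and to the right in HepG2. Immediate-early and inflammatory genes show the reverse, with the longest lines at FOSB, SNAI1 and EGR1 in the first and at CCL20 and PTGS2 in the second.

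Among 27 tested ligands and receptors of Notch, Wnt and vascular signalling, 3 differed, all lower in HepG2 (0.825% of all genes). NPPC, which encodes C-type natriuretic peptide, read 4.65 and 4.36 in LX2 control and 7.05 and 6.89 in LX2 CM272, against 4.42 and 4.90 in HepG2 control and 4.56 and 4.77 in HepG2 CM272. It stood out only in the LX2 CM272 arrays (difference -2.46, SE 0.27, limma adjusted p = 0.00405). CXCR4, the receptor for the chemokine CXCL12, differed by -1.98 (SE 0.24) and DKK2, a secreted Wnt antagonist, by -1.58 (SE 0.22). DKK2 lay under the filter in LX2 control (3.21 and 3.20) and in all HepG2 arrays (3.30 to 3.62). It was tested through its LX2 CM272 arrays alone, so the size of its rise is not exact. DLL4, a Notch ligand, had changes of 2.33 in LX2 and 0.58 in HepG2, and its difference of -1.75 did not pass (limma adjusted p = 0.06). The list's median difference was -0.34, with 20 of 27 below 0, against 6022 of all 12239 genes.

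In 15 of the 145 genes the larger change was in HepG2. C5AR1, the receptor for complement fragment C5a, fell in HepG2 from 6.39 and 6.32 to 4.47 and 4.46 (change -1.89, limma adjusted p = 0.0122). In LX2 it read 4.53 and 4.41 in control and 5.30 and 4.82 with CM272. The groups did not overlap in either line, and the CM272 arrays lay below control in HepG2 and above it in LX2 (difference -2.48, SE 0.24, limma adjusted p = 0.00217). Of all genes tested 5.49% had such a pattern. The difference of C5AR1 was called in all 18 alternatives. The fall in HepG2 taken alone lost its call when each line was fitted by itself and without any 1 of 6 arrays.

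EREG encodes epiregulin, a growth factor for the EGF receptor. It read 7.05 and 6.13 in HepG2 control and 5.29 and 4.81 with CM272, and rose in LX2 from 3.50 and 3.27 to 4.55 and 4.44. Again neither line overlapped, in the pattern that 5.49% of all genes tested had, and the difference was -2.65 (SE 0.39, limma adjusted p = 0.0181). The HepG2 change of -1.54 did not pass on its own (limma adjusted p = 0.22). MAB21L3, chosen after its values were seen, read 8.42 and 7.82 in HepG2 control and 6.56 and 5.98 with CM272, and 3.26 to 3.66 in all LX2 arrays (difference -1.96, SE 0.35). Its LX2 groups overlapped.

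The larger change was in HepG2 for 14 of the 101 genes and for 1 of the 44, MPHOSPH10, a protein of ribosomal RNA processing (0.67 in HepG2 and -0.65 in LX2). Besides those named, the 14 held KLF5 (-0.73 in HepG2 and 0.69 in LX2), MXD1, a MAX partner that opposes MYC (-0.72 and 0.66), and IL4R, a chain of the interleukin-4 receptor (-0.79 and 0.47), all named after their values were seen. All but C5AR1 missed the threshold in HepG2 alone. Of ERN1, the endoplasmic reticulum stress sensor IRE1, and TXNIP, which binds thioredoxin, also named after their values were seen, the HepG2 changes were -0.94 and -0.85 and the LX2 changes 1.13 and 1.25.

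Cholesterol synthesis genes had the higher change in HepG2: 4 of 18 tested members passed the test of the difference, and all 4 fell in LX2. They are switched on together by the transcription factor SREBP2 when sterols run low. SQLE, squalene epoxidase, read 9.67 and 9.83 in LX2 control and 8.54 and 8.64 in LX2 CM272. In HepG2 it read 7.87 and 7.88 in control and 8.30 and 8.64 with CM272. The CM272 arrays lay below control in LX2 and above it in HepG2, without overlap (difference 1.76, SE 0.22, limma adjusted p = 0.0085). Of all genes tested 5.2% had that pattern.

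HMGCS1, the synthase that makes HMG-CoA, fell in LX2 from 10.34 and 10.33 to 9.56 and 9.71. Its HepG2 arrays read 7.13 and 7.08 in control and 7.50 and 7.88 with CM272 (difference 1.28, SE 0.22, limma adjusted p = 0.0337). MSMO1, a methylsterol oxidase, differed by 1.17 (SE 0.20) and INSIG1, the anchor that keeps SREBP proteins inactive, by 0.97 (SE 0.19), the smallest difference that passed. INSIG1 was dim in HepG2, between 3.02 and 3.28, so that its difference was a fall in LX2. None of the 4 passed the threshold in HepG2 alone.

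The 4 are 22.2% of the list, against 0.36% of all genes in that direction. A difference above 0 was seen in 16 of 18 members, against 6217 of all 12239 genes. The list's median change was -0.43 in LX2 and 0.42 in HepG2, and the median difference 0.76, from 0.64 to 0.93 over 17 alternatives. The change was above 0 in 16 of 18 in HepG2 and in 5 of 18 in LX2, against 5677 and 5808 of all 12239 genes. ACAT2 (1.26), HSD17B7 (1.33), STARD4 (0.99) and FDPS (0.90) did not pass, and SREBF2, which encodes SREBP2, gave -0.14. HepG2 CM272 replicate 2 was further from control than replicate 1 in 17 of 18 members, with list medians of 0.60 and 0.26, and in LX2 the medians were -0.48 in replicate 2 and -0.31 in replicate 1. SQLE, MSMO1, HMGCS1 and INSIG1 lost their calls in 3, 5, 6 and 11 of 18 alternatives. The serum level, 2% in LX2 and 10% in HepG2, goes with the line, and its part in this difference cannot be told apart.

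Fatty acid genes, many of them under the related factor SREBP1, differed in 2 of 19 tested members (0.36% of all genes). SCD, the desaturase that makes oleate, read 11.29 and 11.37 in LX2 control and 10.52 and 10.38 with CM272, against 10.56 and 10.80 in HepG2 control and 10.89 and 11.09 with CM272 (difference 1.19, SE 0.21). ACSS2, which makes acetyl-CoA from acetate, differed by 1.24 (SE 0.23). SCD and ACSS2 lost their calls in 8 and 9 of 18 alternatives. FASN (0.14), ACLY (0.10) and SREBF1 (-0.11) gave small values, and ACSL5 had the lowest value of the list, -1.74, which did not pass. The median difference was 0.25. Of 10 LXR targets and sterol transporters 0 passed (1.18% of all genes), with a median of -0.19.

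The probe set for MIR4668, a microRNA gene, gave the largest value, 2.94 (SE 0.46, limma adjusted p = 0.0232), from 6.76 and 6.78 to 4.14 and 4.72 in LX2. Its HepG2 arrays lay between 1.94 and 3.37, under the filter, and overlapped, so that the difference was a fall in LX2. HOXB4, a homeobox factor of blood stem cells, fell in LX2 from 7.43 and 7.32 to 6.43 and 6.45, and was dim in HepG2, at 3.26 and 3.43 in control and 3.89 and 4.43 with CM272 (difference 1.76, SE 0.26).

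The 15 largest also held NFS1, the desulfurase of iron-sulfur cluster assembly (1.60), VDAC3, a channel of the outer mitochondrial membrane (1.44), CLYBL, a mitochondrial lyase (1.38), MBOAT1, a lysophospholipid acyltransferase (1.61), and KDELR3, which returns proteins to the endoplasmic reticulum (1.60). HOXB4 and MIR4668 above, IPP (1.49), LXN (1.45), ZYG11B (1.41), CMBL (1.35), LOC100507412 (1.37) and the microRNA genes MIR548C (1.64) and MIR27B (1.37) and SQLE completed them. MBOAT1 (2.94 to 3.80) and LXN (2.59 to 2.91) were under the filter in all HepG2 arrays, so that their HepG2 changes are not exact. NFS1 fell in LX2 from 7.64 and 7.67 to 6.57 and 6.66, and read 6.75 and 6.99 against 7.29 and 7.56 in HepG2 without and with CM272. Leaving out 1 array ended the calls of all 44 in at least 1 setting, since 0 were called without either LX2 control array.

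Of 21 tested matrix and cross-linking genes LOX, the collagen cross-linker, was the 1 that passed (1.17, SE 0.21), against 0.36% of all genes. It fell in LX2 from 9.09 and 9.27 to 8.11 and 8.23, with 6.71 and 6.72 against 6.74 and 7.0 in HepG2. The median difference over the list was 0.09, or -0.02 with quantile normalization within each line. Of 12 contractile myofibroblast genes 0 passed (1.18% of all genes), with DES at -1.03 and TPM1 at 0.77. Of 13 TGF-beta targets SNAI1 and IL11 passed, against 0.825% of all genes in that direction. The list's median of 0.04 depended on which LX2 CM272 array was used. It was -0.26 with replicate 2 left out and 0.34 with replicate 1 left out. In LX2 CM272 the pair of replicates stood at 0.02 and -0.35 for that list.

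Of 30 tested plasma protein genes 0 passed the test of the difference, against 1.18% of all genes. Their median was 0.05, or -0.04 without LX2 CM272 replicate 2. HP, haptoglobin, had the largest value, 0.66 (95% interval 0.07 to 1.25, limma adjusted p = 0.236), with changes of 1.42 in HepG2 and 0.76 in LX2. ALB, serum albumin, gave -0.28 (95% interval -0.70 to 0.15). GATA4 (1.13, SE 0.21) was the 1 of 12 hepatocyte transcription factors that passed, against 0.36% of all genes. It fell in LX2 from 6.01 and 6.23 to 5.32 and 5.13. LGR5, a receptor of progenitor cells, rose in LX2 from 3.70 and 3.88 to 4.85 and 5.44. It stood at 10.22 and 10.27 in HepG2 control and 10.13 and 10.14 with CM272 (difference -1.47, SE 0.27). LGR5 was the 1 of 21 fetal liver genes that passed, against 0.825% of all genes.

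For the enzymes that CM272 inhibits and their partners, the transcript change did not pass the test of a difference between the lines. EHMT2 gave a difference of 0.35 (95% interval -0.15 to 0.85), EHMT1 0.21 (-0.26 to 0.67), DNMT1 -0.29 (-0.73 to 0.15) and UHRF1 -0.25 (-0.71 to 0.22). All 4 were expressed in both lines, with EHMT2 between 7.07 and 7.72 and DNMT1 between 8.26 and 9.78 over the 8 arrays. Of 19 tested members of the silencing machinery 0 passed, against 1.18% of all genes. CBX3, which encodes the heterochromatin protein HP1 gamma, had the largest value, 0.88 (95% interval 0.25 to 1.51, limma adjusted p = 0.15), with -1.02 in LX2 and -0.14 in HepG2. These values concern transcripts, and enzyme activity and methylation were not measured.

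Among imprinted and interferon-stimulated genes single members differed, against 1.18% of all genes. MEST, an imprinted gene read from the paternal copy, fell in LX2 from 7.55 and 7.51 to 6.07 and 5.94, and read 6.08 and 5.96 against 5.80 and 5.76 in HepG2 (difference 1.28, SE 0.19). PEG10, also imprinted, went the other way, with 1.26 in LX2 and 0.17 in HepG2 (difference -1.09, SE 0.21). They were the 2 of 14 imprinted genes that passed. Of 24 interferon-stimulated genes OASL, a relative of the antiviral oligoadenylate synthetases, rose in LX2 from 5.19 and 5.10 to 7.58 and 7.47 and overlapped in HepG2, between 4.51 and 5.05 (difference -2.50, SE 0.27, limma adjusted p = 0.00372). IFI44L differed by -1.59 (SE 0.20), and was dim in HepG2, at 2.16 to 2.81. It lay under the filter in LX2 control too, at 3.33 and 3.31, so the size of its rise is not exact. The other 22 did not pass, and IFIT3 (0.01), RSAD2 (0.04) and XAF1 (-0.01) had the differences nearest to 0, with IFITM3 (-0.01).

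Single members passed in the lists of NRF2 targets (GSTM3, -1.54, 1 of 14), lysosome and autophagy (CTSV, -1.06, 1 of 21) and the unfolded protein response (ATF3, 1 of 17). Of all genes 1.18% passed in either direction, and 0.825% in the direction of these genes. At that share a short list may hold 0 calls, so nothing is read from lists without one. None passed among 29 G1/S genes, 27 mitosis genes, 23 p53 targets and apoptosis regulators, 9 glycolysis, 9 oxidative phosphorylation, 9 gluconeogenesis, 6 MHC class I, 3 bile acid or 7 housekeeping genes. The largest values there were HK2, the first enzyme of glycolysis (-1.12, limma adjusted p = 0.0632), PMAIP1, a BH3-only inducer of apoptosis (-1.24, 0.0662), and GSTA1 (1.15, 0.107). The median difference was 0.14 for the G1/S list and 0.14 for the mitosis list, and for the G1/S list it was -0.03 without HepG2 CM272 replicate 2.

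Several genes with a lower change in HepG2 stood close together in the order of named array genes. On chromosome 17 HSF5 (-1.71), SEPTIN4 (-2.25) and TEX14 (-5.61) passed within a run of array genes, and MTMR4 (0.12), between HSF5 and SEPTIN4, did not. RAD51C (0.06), next to TEX14, did not pass, and neither did TRIM37 (0.22). SEPTIN4, a septin of the cytoskeleton, read 5.13 and 5.16 in LX2 control and 7.18 and 7.37 with CM272, and overlapped in HepG2 between 4.13 and 4.48. On chromosome 4 PCDH10 (-2.61), PCDH18 (-1.42), SLC7A11-AS1 (-2.15) and NOCT (-1.48) passed, with 2 non-coding genes among them too dim to test. The genes on either side, C4orf33 (0.37) and ELF2 (0.07), did not pass. HSF5, SEPTIN4, MTMR4 and the chromosome 4 neighbours of PCDH10 were named after their values were seen. TEX14, HSF5 and SLC7A11-AS1 met the filter through their LX2 CM272 arrays alone, so the sizes of their rises are not exact. The order is that of the RefSeq table, among array genes with a symbol, and does not measure distance. The promoters of HSF5 and SEPTIN4 lie at chr17:58488359-58488658 and chr17:58532011-58532310. Those of PCDH18 and NOCT lie much further apart, at chr4:137532445-137532744 and chr4:139015531-139015830. How often called genes would stand together by chance was not tested.

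Of the 145 genes, 17 were called under each of 18 alternatives, and all 17 had a lower change in HepG2. They were TEX14, USP17L12, USP17L9P, FOSB, ZNF280A, SNAI1, USP17L15, RELN, GTF2B, PCDH10, OASL, C5AR1, NPPC, RND1, SEPTIN4, LOC339166 and BAIAP2. BAIAP2, an actin scaffold, rose in LX2 from 6.35 and 6.36 to 7.97 and 7.90, with 6.41 and 6.31 against 6.14 and 6.06 in HepG2 (difference -1.84, SE 0.19). Its CM272 arrays lay above control in LX2 and below it in HepG2 without overlap, as for 60 of the 101 (5.49% of all genes tested) and, the other way round, for 33 of the 44 (5.2%). The genes were chosen by the difference, which favours such patterns, so nothing is read from these counts. RND1, LOC339166 and BAIAP2 were named after their values were seen.

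**Figure D5:**
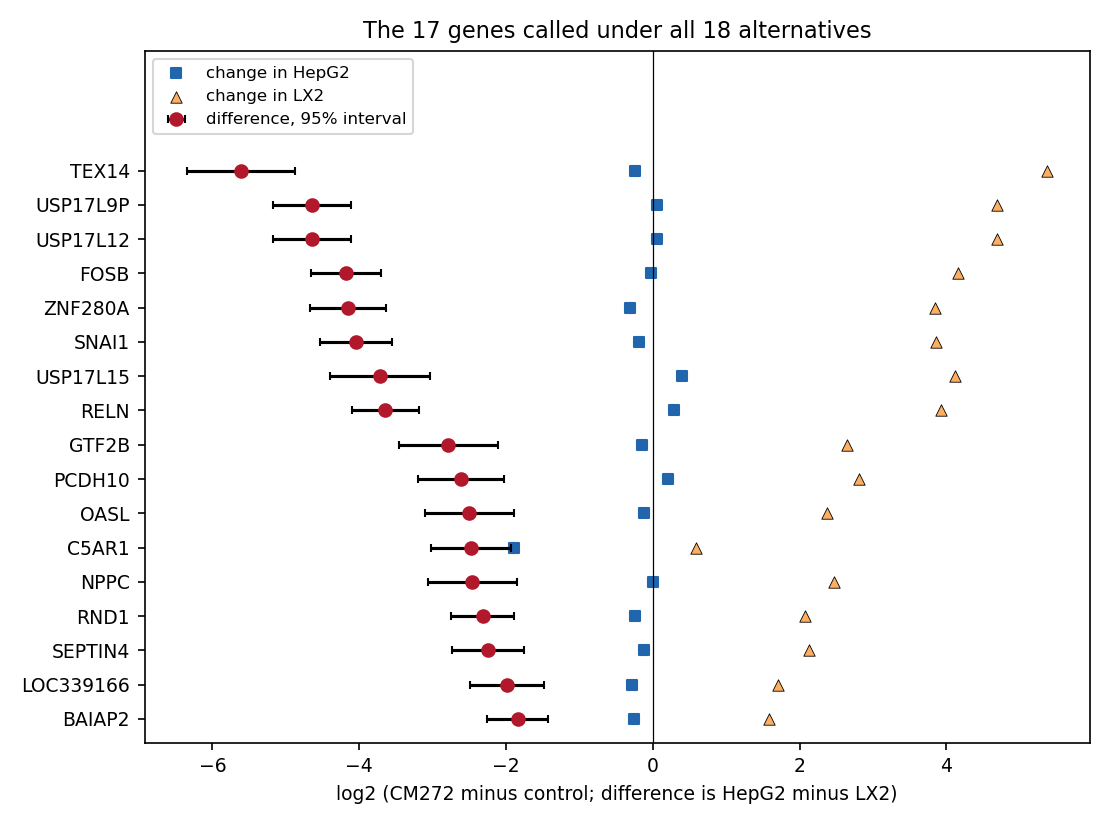
Difference of the CM272 change (HepG2 minus LX2, log2, red points with 95% intervals), change in HepG2 (blue squares) and change in LX2 (orange triangles) for the 17 genes called under all 18 alternatives. The differences run from -5.61 for TEX14 to -1.84 for BAIAP2. In 16 of the 17 the HepG2 change runs from -0.31 for ZNF280A to 0.40 for USP17L15, and C5AR1 has a HepG2 change of -1.89.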

How the data were processed

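Total RNA (300 ng per sample) of 8 samples (200000 cells seeded per well) was hybridised to Affymetrix whole-transcript arrays. The deposited table holds log2 values that the authors made with RMA, per the submitters' processing notes (version and genome build not given in the sources used here). RMA sets a common intensity distribution across arrays and compresses differences of dim genes. Values ran from 0.49 to 14.07, with array medians of 4.19 to 4.54. Arrays give no counts, so their number limits the precision.

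The platform annotation names 16098 of 48416 probe sets, for 14884 symbols. A symbol with several probe sets was represented by the one brightest on average, and 2645 symbols were too dim to test. 1 model (limma 3.58.1, R 4.3.3) with a mean per group gave (HepG2 CM272 minus HepG2 control) minus (LX2 CM272 minus LX2 control) and the change in each line, two-sided, with Benjamini-Hochberg adjustment over 12239 genes at 0.05 (4 residual and 5.47 prior degrees of freedom). An exact permutation test of 2 arrays against 2 cannot go below p = 0.333. In simulated data the test of the difference recovered 77 of 100 genes with a true difference of log2 2. At a true difference of log2 1 it recovered 23 of 100. A gene without a call is therefore not shown to respond alike in the lines. Figures used matplotlib 3.10.9, and tables pandas 2.3.3.

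Named genes were the 15 largest differences in each direction, up to 5 called members per gene list or the 2 largest values where none was called, genes called in both lines (there were none) and EHMT2, EHMT1, DNMT1 and UHRF1. The gene lists, the markers and the comparison itself were chosen with earlier results of these data known. The shares of list members that passed therefore describe the lists and do not test them. A list of 33 histone genes had 0 members on the array under their symbols. Alternatives changed the filter, probe set choice, normalization, variance model and replicate block, and left out each array.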

Additional observations from a re-analysis of the deposited data

Results flagged for a closer look

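The CM272 change differed between the lines for 101 genes below 0 and 44 above 0 (HepG2 minus LX2), by the test of the difference itself in limma. TEX14 (-5.61) and MIR4668 (2.94) were the extremes, and C5AR1 was the single gene called in HepG2.

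Probe sets with no gene symbol lie outside the comparison above. Of 32318, 17658 passed the brightness filter with 16994 distinct sets of values, and in a limma fit of their own the difference passed for 119 below 0 and 37 above 0 (0.918%). The largest were probe set 16965027 (difference -5.54, SE 0.71, with 5.34 in LX2 and -0.20 in HepG2), 16965007 (-5.40, SE 0.36), 16836858 (3.75, SE 0.41) and 16896396 (2.65, SE 0.47). Their genes are not named here.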

How the results depend on the processing

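No called gene reversed in any alternative, and 56 of the 145 kept their call in all 10 settings other than leaving out an array. Beside 44 above 0 and 101 below 0, the difference gave 29 above 0 with array weights, 169 and 202 with a filter at log2 6, 19 and 60 with no filter, and 120 and 166 with a trended, robust variance. Leaving out 1 array gave 0 to 583 above 0 and 19 to 378 below 0. In LX2 the counts of 464 higher and 567 lower became 139 and 144 with array weights and 132 and 66 with each line fitted alone, and 51 to 906 higher and 5 to 1587 lower without 1 array. In HepG2, 1 gene rose with array weights, a filter at log2 6, no filter or a trended, robust variance. The single fall became 4, 3 and 3 with array weights, the filter at log2 6 and the trended, robust variance, 0 with each line fitted alone, and 0 to 1 without 1 array. The filters change how many genes are tested, and the cause of the other shifts was not tested.

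Replicate numbers did not pair the samples (correlations of -0.05 to 0.08 between deviations of replicate 1). With the replicate block 32 genes passed above 0 and 87 below 0, and 109 of the 145 were among them. For named genes, 1243 of 1502 alternative values kept their side of the threshold, 236 lost it, 23 gained it and 0 reversed. Medians of the cholesterol, immediate-early and inflammatory lists kept their sign in all 17 alternatives. With 2 arrays per group a difference under 0.97 was not called for any gene.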
